A study of Mus musculus with 6 samples.

Results

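The 41 genes described here encode enzymes of glycolysis, the pentose phosphate pathway, the pyruvate dehydrogenase complex and the TCA cycle, though not all subunits. They were picked by symbol and not by their values, though with earlier results of these data known. All 41 were among the 41128 genes of the deposited table, and 37 passed the filter on low expression (an RPKM over 0.5 in at least 1 mouse, where RPKM are reads normalized for gene length and library size) and were tested together with all protein-coding genes, 9522 in all. *Pfkm*, *Ldhb*, *Suclg2* and *Sucla2* did not pass it. The RNA came from leukemia cells of 6 recipient mice, 3 per cohort, with 1 library per mouse. Donor KIT+ bone marrow stem and progenitor cells from B6.SJL (CD45.1+) mice were transduced with retroviruses and drug selected. They were transplanted into lethally irradiated C57BL/6 (CD45.2+) recipients. All leukemias carried retroviral *Hoxa9*. In the *Hoxa9*/MTV cohort (mice 1.1, 1.2 and 1.4) the other vector was empty, and in the *Hoxa9*/*IRX3* cohort (mice 3.2, 3.3 and 3.5) it carried a human *IRX3* cDNA. Donor-derived KIT+Gr1+ marrow cells of sick mice were sorted. The transgenes were delivered by retroviruses to normal progenitors, and each library held the leukemia of 1 recipient.

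Glycolysis converts glucose to pyruvate in the cytosol, from phosphorylation by a hexokinase to pyruvate kinase, and lactate dehydrogenase reduces pyruvate to lactate. The pentose phosphate pathway branches off at glucose 6-phosphate: its oxidative arm makes NADPH, which myeloid cells use for biosynthesis, redox defence and the respiratory burst, and its non-oxidative arm interconverts ribose 5-phosphate and the sugars of glycolysis. Pyruvate that enters mitochondria is turned to acetyl-CoA by the pyruvate dehydrogenase complex and oxidized in the TCA cycle.

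*Kit* was read at 1.63 to 3.12 RPKM in all mice and *Ly6c2*, recognized by the Gr1 antibody, at 413 to 844, while defining B and T cell genes (*Ms4a1*, *Pax5*, *Cd3d*) were listed at 0 in every mouse. *Ly6g* was at 0.0532 to 0.145 RPKM in *Hoxa9*/MTV mice and 0.682 to 1.42 in *Hoxa9*/*IRX3* mice (adjusted p = 0.0205, limma). The summed level of 14 cell cycle genes overlapped, at 195 to 209 against 164 to 258 RPKM. Depth, as recovered from the steps between low RPKM values, ranged from 7979246 to 9803621 reads, of which the 41 genes took 0.586% to 0.711%. *Hoxa9*/*IRX3* mice differed among themselves more than *Hoxa9*/MTV mice. The median SD of log2(RPKM + 0.5) was 0.242 against 0.121 over all tested genes, and 0.244 against 0.111 over the 37 enzymes.

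Of the 37 enzymes, 2 passed an adjusted p of 0.05 (limma, adjusted over all tested genes by the method of Benjamini and Hochberg): *Rpe* was higher and *Hk3* lower in *Hoxa9*/*IRX3* leukemias. This was 5.41% of the enzymes, and 5.36% of all tested genes passed (1.84% higher and 3.52% lower). At an unadjusted p of 0.05 they were 9 of 37, against 24.3% of all tested genes. The cohorts did not overlap for 16 of 37 enzymes, 8 higher and 8 lower, against 33.7% of all tested genes (12.2% higher and 21.6% lower). Their median difference in log2(RPKM + 0.5) was -0.07, and that of all tested genes -0.06. By step, as the plot of changes shows, 5 of the 7 pentose phosphate genes were among those without overlap, 4 higher and 1 lower. So were 6 of 10 in the TCA cycle (2 higher and 4 lower) and 2 of 3 hexokinases (1 higher and 1 lower). There were 2 of 6 in lower glycolysis, 1 of 4 in the pyruvate dehydrogenase complex and 0 of 6 in upper glycolysis. The 1 tested lactate dehydrogenase gene overlapped. The difference between steps was not tested.

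**Figure D1:**
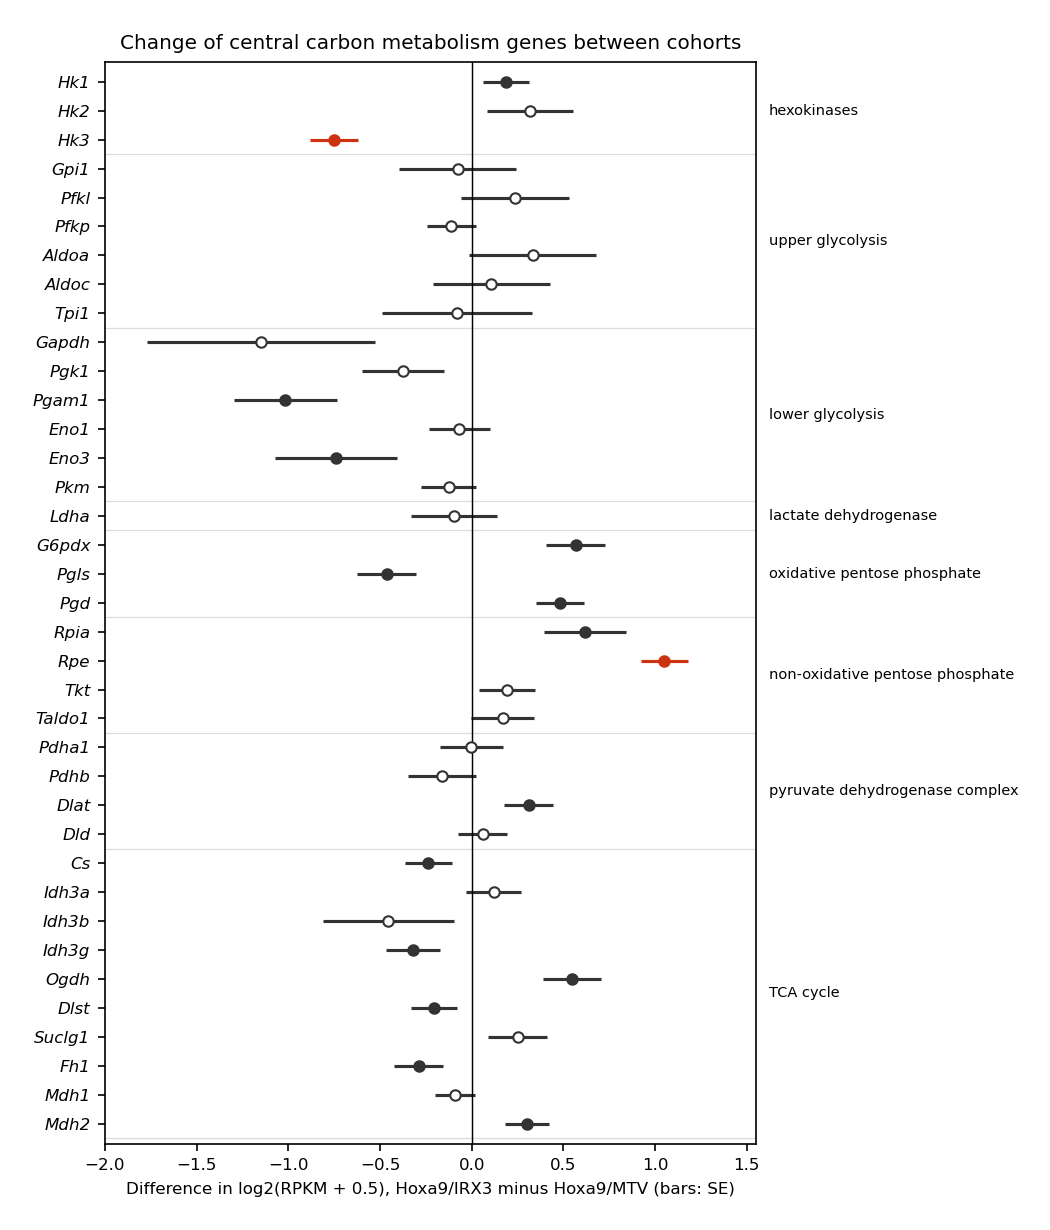
Difference in log2(RPKM + 0.5) between Hoxa9/IRX3 and Hoxa9/MTV leukemias (x axis, bars are SE) for the 37 tested enzymes, grouped by step. Red marks the 2 enzymes with adjusted p under 0.05, Rpe at 1.05 and Hk3 at -0.75, and filled points mark the 16 enzymes whose cohorts do not overlap.

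Summed per step on a scale that divides reads by annotated exon length, which rests on the inference that the deposited RPKM had been divided by the whole gene span, the hexokinases and the enzymes of lower glycolysis were lower in all *Hoxa9*/*IRX3* mice than in any *Hoxa9*/MTV mouse, and both arms of the pentose phosphate pathway were higher. The hexokinase sum was 202, 198 and 177 in *Hoxa9*/MTV mice and 158, 125 and 144 in *Hoxa9*/*IRX3* mice. The sum of lower glycolysis was 196, 230 and 195 against 165, 172 and 157. It was 142, 153 and 137 against 172, 189 and 208 in the oxidative arm of the pentose phosphate pathway, and 159, 180 and 151 against 225, 202 and 247 in the non-oxidative arm. Upper glycolysis, lactate dehydrogenase, the pyruvate dehydrogenase complex and the TCA cycle overlapped between cohorts. The TCA cycle in particular ranged from 244 to 263 in one cohort and from 243 to 267 in the other. The 4 sums without overlap did not overlap either as a percentage of the summed level of all protein-coding genes (hexokinases 0.0695% to 0.0817% against 0.0478% to 0.0609%). These sums give most weight to their most abundant genes and were not tested. In lower glycolysis the most abundant gene, *Pkm*, overlapped between cohorts (25.5 to 32.9 against 24.2 to 27.2 RPKM). Its mean per exon length was 130 against 119. That of *Gapdh* was 20.3 against 10.0, of *Pgk1* 20.7 against 14.8 and of *Pgam1* 21.3 against 10.2. Levels of *Gapdh*, *Pgk1*, *Pgam1* and *Eno1* are uncertain, since other genes share part of their sequence, as described below.

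**Figure D2:**
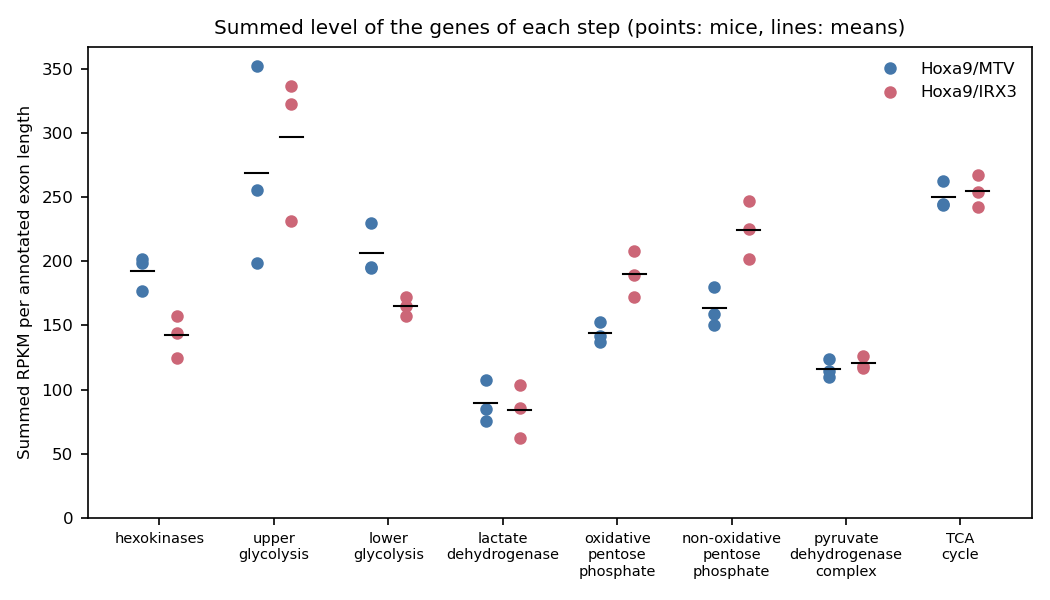
Summed RPKM per annotated exon length (y axis) of the genes of each step in each mouse (points, with lines at cohort means). Hexokinases and lower glycolysis sit lower, and both arms of the pentose phosphate pathway higher, in all 3 Hoxa9/IRX3 mice, while the TCA cycle sums overlap. The lower glycolysis sum includes Gapdh, Pgk1, Eno1 and Pgam1, whose levels are uncertain because other genes share part of their sequence.

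The promoters of the 2 enzymes that passed the test are printed here, since these genes hold the differences described next, with that of *G6pdx*, the first enzyme of the oxidative pentose phosphate arm. The sequences are from RefSeq (GRCm38.p6), 300 bases around the annotated start, 5′ to 3′ on the strand of the gene, and capitals mark letters of 3 searched motifs read on either strand. These were ACGTG, the core that hypoxia-inducible factors bind, GAGGAA, a core bound by the myeloid factor PU.1, and TGACNNNGC, the core of the antioxidant response element.
*Hk3*, chr13:55021336-55021635, minus strand: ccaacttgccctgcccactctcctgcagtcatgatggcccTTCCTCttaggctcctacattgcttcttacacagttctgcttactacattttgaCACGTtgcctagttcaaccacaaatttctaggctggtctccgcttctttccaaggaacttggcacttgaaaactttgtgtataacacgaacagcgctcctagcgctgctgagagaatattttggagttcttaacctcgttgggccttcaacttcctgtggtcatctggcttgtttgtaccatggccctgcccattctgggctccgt
*Rpe*, chr1:66700581-66700880, plus strand: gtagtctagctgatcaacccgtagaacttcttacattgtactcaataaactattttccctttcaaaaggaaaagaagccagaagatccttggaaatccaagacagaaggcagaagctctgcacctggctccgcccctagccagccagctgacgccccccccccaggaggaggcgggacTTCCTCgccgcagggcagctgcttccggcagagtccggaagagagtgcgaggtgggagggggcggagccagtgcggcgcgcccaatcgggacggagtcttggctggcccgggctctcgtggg
*G6pdx*, chrX:74428831-74429130, minus strand: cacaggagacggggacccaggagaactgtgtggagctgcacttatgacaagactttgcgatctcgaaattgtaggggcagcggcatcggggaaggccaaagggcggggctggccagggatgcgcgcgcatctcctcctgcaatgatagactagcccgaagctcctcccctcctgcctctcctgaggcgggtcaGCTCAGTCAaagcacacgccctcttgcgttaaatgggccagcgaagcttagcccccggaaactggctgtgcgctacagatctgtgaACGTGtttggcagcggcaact
The *Hk3* window held ACGTG and GAGGAA once each, that of *Rpe* GAGGAA once, and that of *G6pdx* ACGTG and TGACNNNGC once each. Windows were found for 40 of the 41 enzymes (not *Idh3a*). These 40 include *Pfkm*, *Ldhb*, *Suclg2* and *Sucla2*, which were below the filter, while the promoters set beside them are of tested genes only. ACGTG was present in 13 of these 40 (32.5%) and in 27.3% of the promoters of 7243 tested genes, GAGGAA in 11 (27.5%) against 26.6%, and TGACNNNGC in 6 (15.0%) against 15.0%. The E-box CACGTG, which contains ACGTG on both strands, was found in 2 (5.00%, *Ldha* and *Pfkm*) against 10.9%, and the Iroquois motif ACANNTGT in 4 (10.0%, *Cs*, *Gpi1*, *Pfkl* and *Pfkm*) against 3.34%. Neither *Hk3* nor *Rpe* held the last motif in this window.

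Hexokinases commit glucose to the cell by phosphorylating it, and *Hk3* is the form typical of myeloid cells. *Hk3* (ENSMUSG00000025877, GRCm38 chromosome 13, 55005985 to 55021385) was read at 37.9, 37.6 and 32.8 RPKM in *Hoxa9*/MTV mice and at 21.6, 20.4 and 21.7 in *Hoxa9*/*IRX3* mice. The cohorts were well apart, and the *Hoxa9*/*IRX3* mice lay close together. The mean went from 36.1 ± 2.85 to 21.2 ± 0.698 RPKM (SD, n = 3), a fall of 0.75 on the log2(RPKM + 0.5) scale (SE 0.13, limma adjusted p = 0.0289). Leaving out mouse 1.1, 1.2 or 1.4 gave -0.715, -0.72 and -0.82 with adjusted p of 0.1303, 0.133 and 0.103. The same omission brought the number of genes called among all those tested from 510 to 76, 66 and 61.

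Because these are bulk samples, fewer *Hk3*-expressing cells and less *Hk3* RNA per cell cannot be told apart. Of the monocyte and macrophage genes, 1 of 5 tested was lower (*Ccr2*), and their summed level was 39.6 to 51.3 RPKM in *Hoxa9*/MTV mice and 11.6 to 23.1 in *Hoxa9*/*IRX3* mice. In mouse 3.3 *Csf1r* was at 6.43 RPKM, above the *Hoxa9*/MTV mice (4.77 to 5.94), and *Hk3* was the lowest of all 6 mice. The summed neutrophil genes overlapped (1511 to 2226 against 1179 to 3398 RPKM), with 1 of 10 higher (*Retnlg*). The summed B cell genes were at 6.26 to 7.13 against 0.276 to 2.31 RPKM, nearly all from *Cd79b* (the 1 tested, lower), and mast cell and basophil genes at 10.2 to 14.5 against 4.31 to 7.30 (1 of 3 tested lower, *Cpa3*). Megakaryocyte genes overlapped, T and NK cell genes did too and came nearly all from *Nkg7*, and erythroid genes summed to at most 0.303 RPKM. Under at least 1 alternative that kept all 6 mice the calls of *Ly6g*, *Retnlg*, *Cd79b* and *Cpa3* were lost (highest adjusted p 0.0596, 0.0902, 0.0847 and 0.111), and that of *Ccr2* was not (0.0207, limma). The part of cell composition in the fall of *Hk3* was not tested.

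The other hexokinases did not pass the test. *Hk1*, the widely expressed form, was at 1.07, 1.11 and 0.969 RPKM in *Hoxa9*/MTV mice and 1.18, 1.12 and 1.51 in *Hoxa9*/*IRX3* mice, higher without overlap by a narrow margin (log2 difference 0.19, SE 0.12, limma adjusted p = 0.394). *Hk2*, the inducible form, overlapped, with mouse 3.2 standing out at 6.28 RPKM against 3.02 to 4.09 in the other mice (0.32, SE 0.24, limma adjusted p = 0.443). On the exon-length scale *Hk3* made up 78.6%, 79.2% and 77.5% of summed hexokinase RNA in *Hoxa9*/MTV mice and 57.2%, 68.4% and 62.8% in *Hoxa9*/*IRX3* mice. It remained the most abundant hexokinase in each leukemia. The log2 ratio of *Hk3* to *Hk1* was 3.46, 3.40 and 3.39 in the first cohort and 2.51, 2.51 and 2.17 in the second, a difference of -1.02 between means with no overlap. The share of *Hk2* went from 14.4% ± 0.944 to 25.5% ± 6.71 (SD, n = 3).

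**Figure D3:**
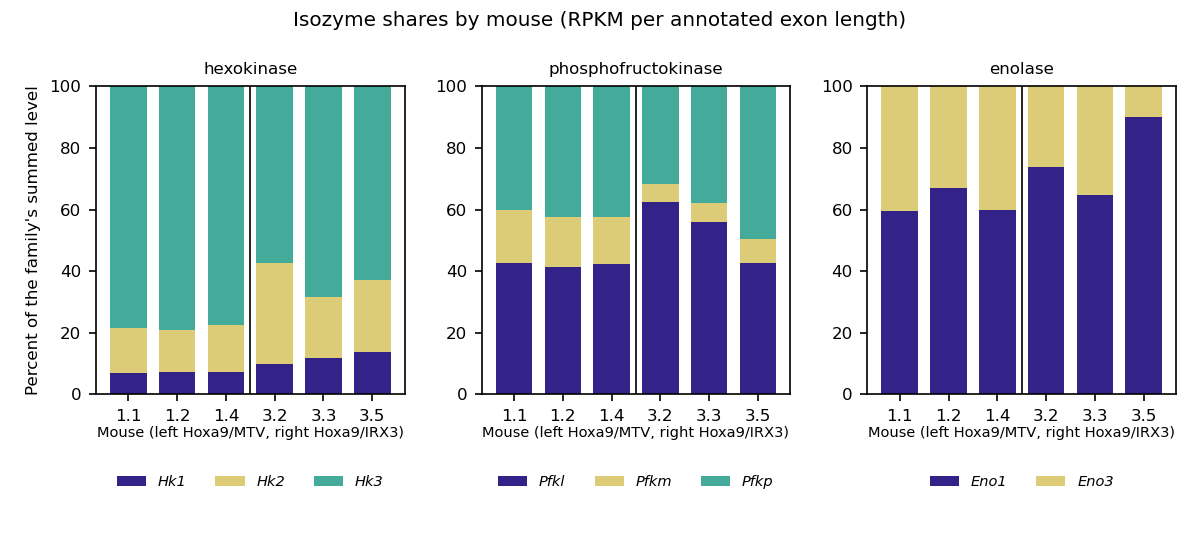
Share of each isozyme in its family's summed level (y axis, percent, RPKM per annotated exon length) for each mouse. Hk3 takes 77.5% to 79.2% in Hoxa9/MTV mice and 57.2% to 68.4% in Hoxa9/IRX3 mice, and Pfkm 15.3% to 17.3% against 5.97% to 7.78%.

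None of the 6 tested genes of upper glycolysis, which splits glucose 6-phosphate into triose phosphates, passed the test in limma, 0 did at an unadjusted p of 0.05, and 0 passed with voom. All 6 overlapped between cohorts. Aldolase A, the main aldolase here, had the largest difference. *Aldoa* was at 66.7, 91.0 and 41.1 RPKM in *Hoxa9*/MTV mice and 97.4, 92.4 and 55.7 in *Hoxa9*/*IRX3* mice, so that mice of one cohort differed by more than the cohorts did (0.33, SE 0.35, limma adjusted p = 0.584). Triosephosphate isomerase varied likewise, with *Tpi1* between 27.2 and 48.9 RPKM in the first cohort and between 19.1 and 55.5 in the second. *Gpi1* (-0.08), *Pfkp* (-0.11), *Aldoc* (0.11) and *Pfkl* (0.24) had small differences in log2(RPKM + 0.5).

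Phosphofructokinase, the main control point of glycolysis, has liver, muscle and platelet forms. The liver form *Pfkl* was at 2.09, 1.84 and 2.09 RPKM in *Hoxa9*/MTV mice and at 3.26, 3.28 and 1.31 in *Hoxa9*/*IRX3* mice, 2 of them above and 1 below the other cohort. Without mouse 3.5 it was higher by 0.59 (limma adjusted p = 0.0415), and with all mice by 0.24, which did not pass (limma adjusted p = 0.652). Over the omissions of other single mice the limma adjusted p of *Pfkl* went up to 0.925. The muscle form *Pfkm* was at 0.247, 0.208 and 0.220 RPKM against 0.0906, 0.105 and 0.0692, low in both cohorts and without overlap. It was below the filter and was tested only in 2 alternative fits. It fell by 0.30 in that without a filter and by 1.04 in that on RPKM per exon length (limma adjusted p = 0.0224 and 0.0407). Mouse 3.5 had 22 reads on it. *Pfkm* took 17.3%, 16.1% and 15.3% of summed phosphofructokinase RNA in *Hoxa9*/MTV mice and 5.97%, 6.15% and 7.78% in *Hoxa9*/*IRX3* mice. *Pfkl* took 41.5% to 42.5% in the first cohort and 42.7% to 62.4% in the second.

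Lower glycolysis runs from glyceraldehyde 3-phosphate to pyruvate and yields ATP and NADH. Each of its 6 genes had a difference below 0, with a median of -0.56, although *Eno1* (-0.07) came to 0.00 and 0.04 under other scalings. Of all tested genes, 42.5% had a difference above 0. *Gapdh*, *Pgk1*, *Pgam1* and *Eno1* are among these 6, and their levels are uncertain. In this step 0 passed the test in limma or voom and 1 (*Pgam1*) had an unadjusted p under 0.05. Phosphoglycerate mutase, *Pgam1*, was at 7.06, 5.37 and 6.33 RPKM in *Hoxa9*/MTV mice and at 2.13, 4.67 and 2.2 in *Hoxa9*/*IRX3* mice, all lower, with mouse 3.3 near the other cohort (-1.02, SE 0.28, limma adjusted p = 0.0872). Without mouse 3.3 it fell by 1.34 (limma adjusted p = 0.0116), the lowest adjusted p over omissions of single mice. The highest was 0.259. The muscle-type enolase *Eno3* also did not overlap, at 1.87, 1.72 and 1.54 against 1.08, 1.42 and 0.260 RPKM, the last from 11 reads (-0.74, limma adjusted p = 0.232). The largest difference, and the largest spread, was that of *Gapdh*. It was at 10.1, 16.4 and 26.5 RPKM in *Hoxa9*/MTV mice and 14.0, 9.59 and 2.53 in *Hoxa9*/*IRX3* mice, which overlapped (-1.15, SE 0.62, limma adjusted p = 0.303). Pyruvate kinase, *Pkm*, the most abundant gene of this stretch per exon length, differed by -0.12 (95% interval -0.48 to 0.23).

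Several of these genes share sequence with other genes, so that their values rest on part of the transcript only. The authors discarded alignments of low mapping quality, and processed pseudogenes of glycolytic enzymes repeat much of their sequence. Of all windows of 75 bases in the annotated *Gapdh* transcript, 80.3% also occurred, letter for letter, in transcripts of 121 other annotated genes, 112 of them pseudogenes. The share was 67.5% for *Pgk1*, 65.4% for *Eno1* and 40.6% for *Pgam1*, and at most 19.9% for each of the other enzymes. It was 0% for *Hk3* and *Rpe*. Levels of *Gapdh*, *Pgk1*, *Eno1* and *Pgam1* are therefore uncertain. The SD of log2(RPKM + 0.5) of *Gapdh* was 0.672 in the *Hoxa9*/MTV and 1.19 in the *Hoxa9*/*IRX3* cohort. Reads across exon junctions may also be lost, since Bowtie2 does not split reads over introns. Windows of 75 bases within 1 exon were 38.9% (*Idh3g*) to 87.0% (*Pgam1*) of the transcript. They were 57.65% for *Hk3*, 76.9% for *Hk2* and 70.1% for *Hk1*, and 44.2% for *Pfkm*, 59.2% for *Pfkl* and 63.2% for *Pfkp*. Exon-length sums and isozyme shares were not corrected for this.

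Lactate dehydrogenase consisted nearly entirely of the A form. *Ldha* was at 19.1, 25.0 and 17.5 RPKM in *Hoxa9*/MTV mice and 24.0, 19.9 and 14.2 in *Hoxa9*/*IRX3* mice, and the cohorts overlapped (-0.10, SE 0.23, 95% interval -0.66 to 0.47, limma adjusted p = 0.829). *Ldhb* was at 0.287 RPKM in mouse 1.1 and between 0.0340 and 0.1203 in the others. *Ldha* made up 96.2% to 99.6% of their sum in each mouse.

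**Figure D4:**
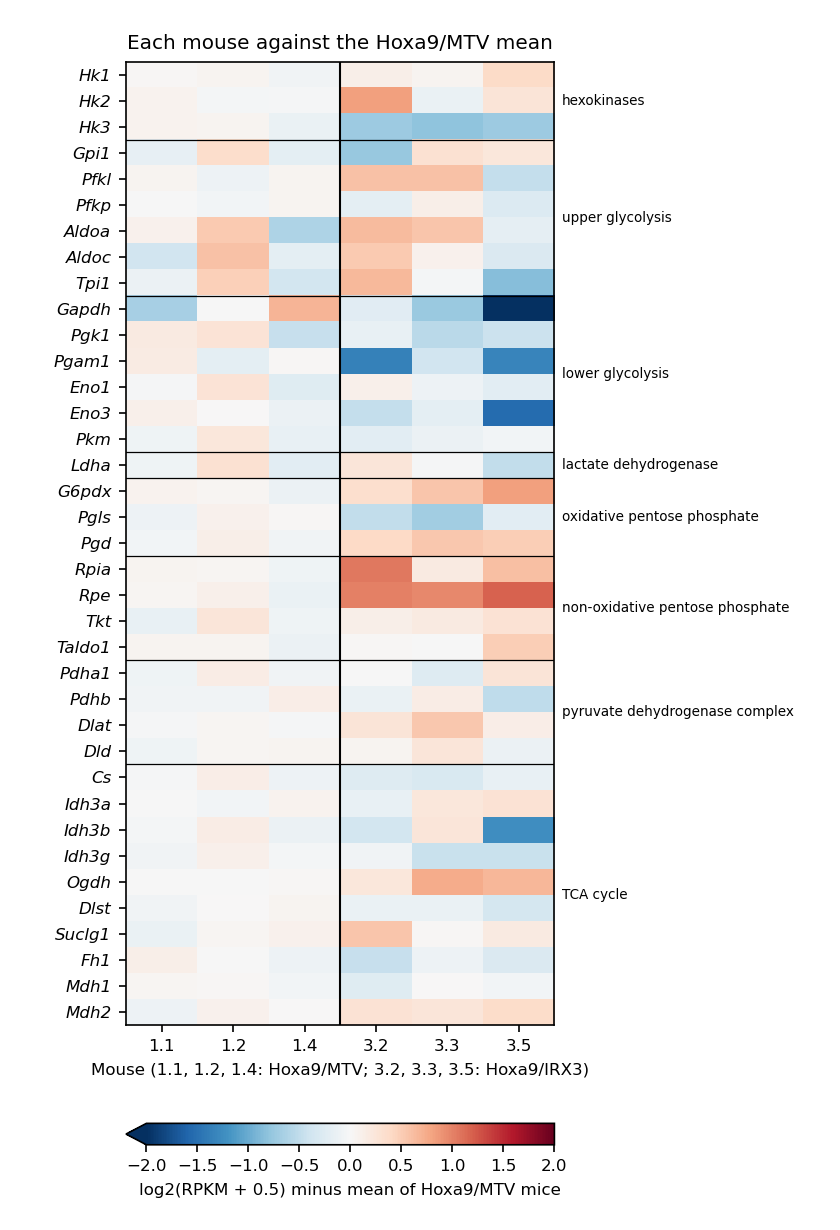
Each tested enzyme in each mouse as log2(RPKM + 0.5) minus the mean of the Hoxa9/MTV mice (colour), by step. Red runs across all 3 Hoxa9/IRX3 mice for Rpe, G6pdx, Pgd and Rpia and blue for Hk3 and Pgam1, while Gapdh, Eno3 and Idh3b are lowest in mouse 3.5, where Gapdh lies beyond the end of the colour scale.

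Glucose 6-phosphate dehydrogenase (*G6pdx*) and 6-phosphogluconate dehydrogenase (*Pgd*) are the enzymes that produce NADPH in the oxidative pentose phosphate arm. Both were higher without overlap, and both missed the threshold. *G6pdx* was at 7.76, 7.53 and 6.73 RPKM in *Hoxa9*/MTV mice and at 9.37, 10.9 and 13.3 in *Hoxa9*/*IRX3* mice (0.57, SE 0.16, limma adjusted p = 0.0931). *Pgd* was at 26.3, 29.8 and 26.1 RPKM against 36.4, 40.0 and 38.7, close together within each cohort (0.48, SE 0.13, limma adjusted p = 0.0849). *Pgls*, the lactonase that acts between them, went the other way, at 10.1, 11.5 and 11.0 against 7.54, 6.51 and 9.35 RPKM (-0.46, SE 0.16, limma adjusted p = 0.143). Unadjusted p was under 0.05 for all 3, and 0 of the 3 passed after adjustment in limma or voom.

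In the non-oxidative arm, ribulose 5-phosphate is turned by an epimerase to xylulose 5-phosphate and by an isomerase to ribose 5-phosphate, the precursor of nucleotides. The epimerase *Rpe* (ENSMUSG00000026005, GRCm38 chromosome 1, 66700831 to 66719805) was at 4.35, 4.61 and 3.81 RPKM in *Hoxa9*/MTV mice and at 9.06, 8.74 and 10.2 in *Hoxa9*/*IRX3* mice. Each mouse of the second cohort was far above each of the first. The mean rose from 4.26 ± 0.404 to 9.35 ± 0.787 RPKM (SD, n = 3), a log2 difference of 1.05 (SE 0.13, 95% interval 0.74 to 1.36, limma adjusted p = 0.0107). It was the only enzyme to pass at a difference of at least 2-fold, a mark met by 3.13% of all tested genes (1.10% higher and 2.03% lower). Leaving out mouse 1.1, 1.2 or 1.4 gave 1.07, 1.10 and 0.98 with adjusted p of 0.0625, 0.0581 and 0.0733. No exon window of *Rpe* was shared with another gene.

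The isomerase *Rpia* was at 4.58, 4.51 and 4.10 RPKM in *Hoxa9*/MTV mice and at 9.71, 5.05 and 6.96 in *Hoxa9*/*IRX3* mice, all higher but widely spread (0.62, SE 0.23, limma adjusted p = 0.160). Without mouse 3.3 it rose by 0.83 (limma adjusted p = 0.0494), the lowest adjusted p over omissions of single mice. The highest was 0.391. Transketolase and transaldolase, which link these sugars back to glycolysis, overlapped between cohorts. *Tkt* differed by 0.19 and *Taldo1* by 0.17 (limma adjusted p = 0.479 and 0.575), with intervals of -0.18 to 0.56 and -0.24 to 0.58. Within the cohorts, mouse 1.2 was the highest for 5 of the 7 pentose phosphate genes (27.1% of all tested genes) and mouse 3.5 for 5 of 7 (22.4% of all tested genes).

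**Figure D5:**
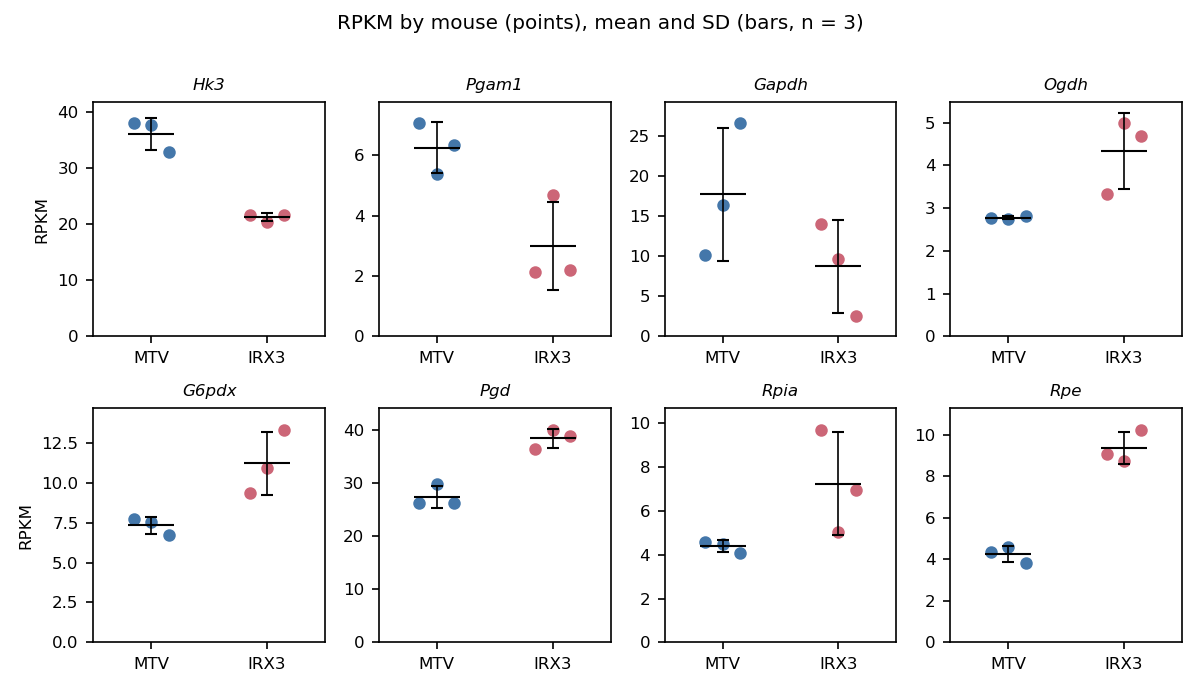
RPKM (y axis, from 0) of 8 enzymes in each mouse (points), with cohort mean and SD (bars, n = 3). Rpe lies at 3.81 to 4.61 in Hoxa9/MTV and 8.74 to 10.2 in Hoxa9/IRX3 mice and Hk3 at 32.8 to 37.9 and 20.4 to 21.7, while Gapdh overlaps.

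Of the 4 genes of the pyruvate dehydrogenase complex, which commits pyruvate to oxidation, 0 passed the threshold in limma or voom and 0 an unadjusted p of 0.05. *Dlat*, its acetyltransferase, had the largest difference of these 4, at 2.42, 2.55 and 2.40 RPKM in *Hoxa9*/MTV mice and 3.04, 3.80 and 2.74 in *Hoxa9*/*IRX3* mice. These did not overlap (0.31, SE 0.13, limma adjusted p = 0.214). The other subunits overlapped, with log2 differences of 0.00 for *Pdha1* (95% interval -0.41 to 0.41), -0.16 for *Pdhb* and 0.06 for *Dld*.

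In the TCA cycle 0 of 10 tested genes passed in limma or voom and 2 had an unadjusted p under 0.05, both higher. *Ogdh*, the first subunit of the 2-oxoglutarate dehydrogenase complex, was at 2.77, 2.74 and 2.81 RPKM in *Hoxa9*/MTV mice and at 3.32, 4.98 and 4.69 in *Hoxa9*/*IRX3* mice. The first cohort was nearly constant, and mouse 3.2 was the closest to it (0.54, SE 0.16, limma adjusted p = 0.101). Without mouse 3.2 it rose by 0.70 (limma adjusted p = 0.0233), the lowest adjusted p over omissions of single mice. The highest was 0.279. *Dlst*, the succinyltransferase of the same complex, was lower without overlap, at 10.1 to 11.1 RPKM against 8.18 to 9.70 (-0.21, limma adjusted p = 0.358). Malate dehydrogenase 2 was the other gene with an unadjusted p under 0.05 (*Mdh2*, 7.55 to 8.67 against 9.67 to 10.7 RPKM, 0.30, limma adjusted p = 0.190).

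Citrate synthase *Cs* (-0.24), *Idh3g* (-0.32) and fumarase *Fh1* (-0.29) were lower without overlap, and limma adjusted p was 0.306, 0.241 and 0.237. *Idh3a* (0.12), *Suclg1* (0.25), *Mdh1* (-0.09) and *Idh3b* (-0.46) overlapped. The last was lowest in mouse 3.5, at 4.35 RPKM against 8.36 and 13.04 in the other *Hoxa9*/*IRX3* mice. The beta subunits of succinyl-CoA ligase, *Suclg2* and *Sucla2*, were under the filter. *Suclg2* was at 0.0592, 0.0590 and 0.0549 against 0.103, 0.0825 and 0.0712 RPKM, and its share of the pair per exon length was 26.6% to 31.4% in *Hoxa9*/MTV mice and 34.4% to 43.1% in *Hoxa9*/*IRX3* mice.

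Genes next to these pathways were described from a list of 98 carriers, regulators and connected enzymes, of which 97 were in the table and 72 were tested. In this list 2 passed the test (2.78%, against 5.36% of all tested genes), both higher. *Hif1a*, the oxygen-regulated factor that induces many glycolytic genes, was at 1.99, 2.22 and 2.83 RPKM in *Hoxa9*/MTV mice and 3.88, 4.71 and 4.65 in *Hoxa9*/*IRX3* mice, with no overlap (0.80, SE 0.15, limma adjusted p = 0.0360). Its protein is regulated by degradation, which RNA does not show. The lactate and pyruvate carrier *Slc16a1* was at 5.20, 5.72 and 5.26 against 11.9, 8.57 and 11.99 RPKM (0.93, SE 0.16, limma adjusted p = 0.0292). Among the regulators listed with hypoxia and MYC, 1 of 11 tested passed.

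The 3 largest differences in this list did not pass, and the *Hoxa9*/*IRX3* mice differed widely among themselves. The hexose carrier *Slc2a6* was at 7.24, 7.26 and 7.98 RPKM in *Hoxa9*/MTV mice and at 0.782, 5.33 and 1.61 in *Hoxa9*/*IRX3* mice, lower in all (-1.67, SE 0.51, limma adjusted p = 0.112). Without mouse 3.3 it fell by 2.28 (limma adjusted p = 0.00900), the lowest adjusted p over omissions of single mice. The highest was 0.302. Pyruvate dehydrogenase kinase *Pdk1*, which inhibits the pyruvate dehydrogenase complex, was at 6.01, 7.49 and 5.05 against 8.26, 1.58 and 1.06 RPKM, high in mouse 3.2 alone of its cohort (-1.11, SE 0.62, limma adjusted p = 0.313). Without mouse 3.2 it fell by 1.88 (limma adjusted p = 0.0131), again the lowest over such omissions. The highest was 0.559. Glutamine synthetase *Glul* spread widely in both cohorts, at 10.5, 39.3 and 39.5 against 29.6, 5.82 and 7.70 RPKM (-1.16, SE 0.73, limma adjusted p = 0.369).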

How the data were processed

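RNA of sorted KIT+Gr1+ leukemia cells from 6 mice, 3 per cohort, was analysed. The authors sequenced paired ends of 75 bases from strand-specific polyA libraries, aligned them to GRCm38 with Bowtie2 2.2.1, removed unaligned, non-primary and low-quality (under 20) alignments with SAMtools 0.1.19, and assigned reads to Ensembl v76 genes. They deposited RPKM for 41128 genes. The length they divided by is not given in the sources used here. It was inferred from the values to be the whole gene span with introns. Unless stated, levels of different enzymes were compared only after rescaling to annotated exon length (GENCODE M21). Summed levels of marker genes are of deposited RPKM and were not rescaled. With the whole gene span, the steps between low values gave 7979246 to 9803621 reads per library, and reads per gene were whole within 0.01 of a read in all libraries for 65.0% of tested genes. The paper gives somewhat higher numbers of reads after filtering. Recovered reads on genes summed to 104.0% to 105.4% of the recovered totals. Exon-length sums, isozyme shares and read numbers rest on this inference of the length.

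Protein-coding genes over 0.5 RPKM in at least 1 mouse (9522) were tested in R 4.3.3 with limma 3.58.1, fitted to log2(RPKM + 0.5) by lmFit and eBayes with a variance trend and adjusted after Benjamini and Hochberg, and the script was tested on simulated data. Fold changes on this scale understate those of low genes. The mice are separate animals, and their numbers do not pair the cohorts. Alternatives were pseudocounts of 0.1 and 1, other filters, median-of-ratios and quantile scaling, no variance trend, sample weights, voom on recovered reads, exon length and leaving out each mouse. Windows of 75 bases of 1 transcript per gene were searched in all other transcripts.

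The 41 enzymes and the lists of neighbouring and marker genes were chosen with earlier results of these data known. All 41 are accounted for. Values in every mouse are given for enzymes with an adjusted p under 0.05, for the largest difference in a step with none, and for members of described isozyme ratios. Further enzymes whose cohorts did not overlap were given such values after these were seen. Of neighbouring genes those past the threshold are named and, since fewer than 3 passed, the 3 with the largest difference. *Pdhx* was given as well, after its values were seen. Figures were drawn with matplotlib 3.10.9 in Python 3.11.15.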

Additional observations from a re-analysis of the deposited data

How the results depend on the processing

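Under the alternatives that kept all 6 mice, *Rpe* stayed higher and *Hk3* lower with an adjusted p under 0.05. With a pseudocount of 1, 0 enzymes passed at least 2-fold. Without a filter, and with exon length in place of the gene span, 2 enzymes were lower (*Hk3* and *Pfkm*, which these fits also test), and with exon length 1 of them by at least 2-fold. Leaving out 1 mouse gave 0 to 2 enzymes higher and 0 to 2 lower, of which 0 to 1 and 0 to 1 by at least 2-fold. Without any 1 of the *Hoxa9*/MTV mice 0 enzymes passed in either direction, and all tested genes had 61 to 76 calls in place of 510. Without mouse 3.2, 3.3 or 3.5, which also leaves 5 mice, all tested genes had 761, 678 and 482 calls. Of neighbouring genes, 1 was higher without a filter or with sample weights (*Slc16a1*), 1 was lower without a filter, with voom or with exon length (*Pdhx*), and leaving out 1 mouse gave 0 to 3 higher and 0 to 3 lower.

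Differences that changed sign were those of enzymes that did not pass in either case. With median-of-ratios scaling *Gpi1* came to 3e-04, *Eno1* to 0.0024 and *Pdha1* to 0.0761, with quantile normalization to 0.0280, 0.0432 and 0.0957, and with sample weights *Tpi1* to 0.0296. Leaving out 1 mouse also changed the sign, to between 0.0961 and 0.2611 for *Gpi1*, -0.1023 and -0.0859 for *Aldoc*, 0.1573 and 0.3073 for *Tpi1*, 0.0013 and 0.0723 for *Eno1*, 0.0529 and 0.1041 for *Ldha* and 0.0021 and 0.1258 for *Pdha1* (0.0696 without mouse 1.2), and to 0.006 for *Pdhb* and -0.0322 for *Dld*. The cause was not tested. The median of the enzymes was between -0.08 and 0.08 in each setting. Of all 510 calls 175 were higher, against 234 of 508 with quantile normalization. On the whole gene span the log2 ratio of *Pfkm* to *Pfkl* differed by -0.54 (-1.30 per exon length) and that of *Suclg2* to *Sucla2* by 0.10 (0.54).

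With 3 mice per cohort and the spread among *Hoxa9*/*IRX3* mice, a missed threshold does not show that a gene did not differ. No paired analysis was possible because the mouse numbers name separate animals and the cohorts share none.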
